A study of Mus musculus with 14 samples.

Results

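The BMAL1/CLOCK arm and the REV-ERB/ROR loop of the circadian clock were examined in mouse quadriceps muscle with and without HDAC3. They were represented by 8 genes chosen by name from the 24354 gene symbols of the authors' deposited expression table: Arntl, Clock, Npas2, Cry1, Nfil3, Nr1d1, Nr1d2 and Rora. The compared groups were 3 RNA-seq libraries labelled HDAC3 Knock-out (KO) and 3 labelled HDAC3 Wild-type (WT). All 6 came from resting male mice of the C57BL/6 strain, aged 4 months, kept on chow under a light/dark schedule without treatment, and were taken at ZT10. ZT, or zeitgeber time, is the number of hours since the lights came on. The labels do not say how or in which cells the gene was deleted, nor whether replicates were separate animals, so p-values may measure a technical spread. Levels are FPKM, a fragment count corrected for gene length and library size, which allows levels of different genes to be set side by side.

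In the clock, the proteins BMAL1 (from Arntl) and CLOCK, or its relative NPAS2, pair up and activate genes through E-boxes, among them Nr1d1 and Nr1d2 as well as the Per and Cry genes. Nr1d1 and Nr1d2 encode the nuclear receptors REV-ERB alpha and REV-ERB beta, which compete with the activator ROR alpha (from Rora) for shared elements called ROREs. REV-ERB alpha represses genes by recruiting the NCoR corepressor with HDAC3, and Arntl, Clock, Npas2, Cry1 and Nfil3 are known targets of this loop in mouse tissues. In mouse liver the REV-ERB proteins are abundant late in the light phase, when these libraries were taken. With 1 time of day, a change of level cannot be told apart from a shift of timing, and in whole muscle fewer cells of a type cannot be told apart from less RNA per cell.

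Promoter sites are shown because the RORE and the E-box are the elements through which the loop runs. All 8 genes matched the RefSeq promoter table (GRCm38.p6), which holds 11 windows for them, each from 250 bases before to 50 bases after an annotated start. Both strands were searched for the E-box CACGTG, the RORE ANTAGGTCA or ANTGGGTCA, the hexamer AGGTCA that some of these ROREs contain, and the D-box TTATGNAA. An RORE lay in the windows of Arntl and Nfil3, and the same 9 letters matched in both. Sites of 30 bases follow, read 5′ to 3′ on the strand that carries the motif, with the match in capitals.
Arntl, RORE, chr7:113207529-113207558, plus strand: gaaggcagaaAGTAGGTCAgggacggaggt
Nfil3, RORE, chr13:52981032-52981061, plus strand (the gene is on the minus strand): agatgtgtgttAGTAGGTCAgttccgagcg
Cry1, E-box, chr10:85185097-85185126, minus strand: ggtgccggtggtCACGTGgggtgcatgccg
Clock, hexamer, chr5:76303604-76303633, plus strand (the gene is on the minus strand): ctgtcatctgtcAGGTCAgaggccaaagct
Nr1d2, hexamer, chr14:18239166-18239195, minus strand: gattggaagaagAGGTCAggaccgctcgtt

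The Arntl match began 29 bases after the second of its 2 annotated starts, and the Nfil3 match 12 bases before the start. An RORE of this spelling was present in 1.45% of all 32851 promoter windows, and the shared letters AGTAGGTCA in 0.192%. The shared letters were picked after the matches were seen, so their share does not measure how unusual the match is. The E-box of Cry1 began 60 bases before its start, and 7.15% of windows held one. The lone hexamers of Clock and Nr1d2 began 119 and 77 bases before a start, and 16.3% of windows held one. No D-box, found in 3.38% of windows, lay in any of the 11. The windows of Npas2, Nr1d1 and Rora held none of these letters, which says nothing of elements elsewhere in those genes. Among the 8020 genes with a window that passed a mean of 1 FPKM over the 6 libraries the shares were 1.40% for the RORE, 12.3% for the E-box, 14.9% for the hexamer and 2.41% for the D-box. A match describes the letters and is not evidence of binding.

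The label of the knockout was checked first. Hdac3 was at 5.51, 6.29 and 8.16 FPKM in the KO libraries, against 33.3, 31.0 and 23.7 FPKM in the WT libraries (limma, adjusted p = 0.00632). FPKM sums lay between 464777 and 495099 in the KO libraries and between 454359 and 484510 in the WT libraries. No read numbers are given, so relative depth was estimated from genes under 0.3 FPKM in all libraries. For each library, the most common ratio to WT replicate 1 was assumed to be that of equal fragment numbers. This put the depth of the KO libraries at 0.660, 0.832 and 0.674 times that of WT replicate 1. The other WT libraries stood at 0.831 and 1.02 times. The 10 skeletal muscle markers summed to between 71339 and 88020 FPKM in KO and between 72761 and 81034 FPKM in WT, so the markers of the labelled tissue were abundant in both groups. The 7 neutrophil markers summed to between 3.42 and 7.50 FPKM in KO and to 5.61, 557 and 9.67 FPKM in WT, so WT replicate 2 stood apart. The 5 satellite cell markers summed to between 2.98 and 4.71 FPKM in KO and between 5.76 and 7.69 FPKM in WT, without overlap. None of these 5 markers, nor of the 7 neutrophil markers, had the higher mean in KO. The fibroblast sums, between 288 and 444 FPKM in KO and between 421 and 596 FPKM in WT, overlapped, although all 6 of these markers had the lower mean in KO. The sums of the endothelial, macrophage, adipocyte, smooth muscle, Schwann cell and red blood cell markers also overlapped, and limma called no marker on any list at an adjusted p under 0.05. By the q-values of the authors' deposited table, 5 neutrophil markers (S100a8, S100a9, Ngp, Camp and Retnlg), 2 fibroblast markers (Col1a1 and Col1a2) and 1 satellite cell marker (Cdh15) were called lower in KO and none higher. The part of these markers in the results below was not tested.

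Of the 8 genes, 7 passed a filter of a mean of 1 FPKM over the 6 libraries, and Npas2 did not. A gene was called at an adjusted p under 0.05 by limma on log2(FPKM + 1), adjusted by Benjamini-Hochberg over all 10501 genes that passed. By this rule Arntl and Nfil3 rose in the KO, none of the 7 fell, and 5 were not called. Without WT replicate 2, the library with the neutrophil markers, neither Arntl nor Nfil3 was called (limma, adjusted p = 0.0796 and 0.0968). Their differences were then 1.16 and 0.99 on the log2(FPKM + 1) scale, against 1.05 and 0.89 with all 6 libraries. Neither was called without KO replicate 1 (limma, adjusted p = 0.0678 and 0.0998) or KO replicate 3 (0.0762 and 0.103), so this was not particular to WT replicate 2. Across all genes 2.30% were called higher and 1.34% lower. At an unadjusted p under 0.05 by limma, 4 of the 7 were higher and 1, Nr1d1, was lower, where 11.0% of all genes were higher and 8.68% lower. Nr1d1 was also the 1 gene of the 7 that was lower at an unadjusted p under 0.05 in the authors' deposited table. By the authors' deposited q-values Arntl, Nfil3, Clock and Cry1 rose, 4 in all, and none fell, where 5.90% of its 9204 tested genes were called higher and 4.94% lower. The same 4 genes had every KO library above every WT library, as 14.2% of the 10501 genes did, and no loop gene had every KO library below every WT library, as 11.9% did. The median difference of the 7 genes was 0.51 on the log2(FPKM + 1) scale and that of all genes 0.00.

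**Figure D1:**
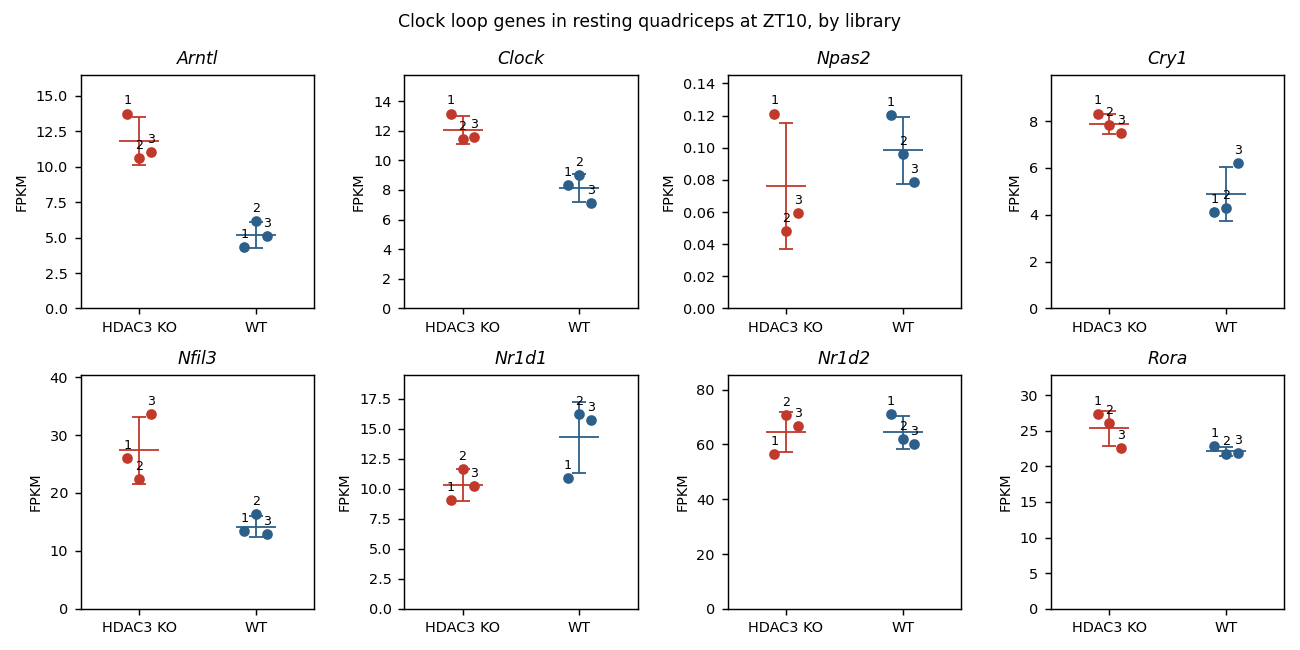
FPKM of each of the 8 genes (vertical axes, starting at 0 and scaled per gene) in the 3 HDAC3 KO libraries (red) and the 3 WT libraries (blue), with points numbered by replicate and a bar and whiskers for the mean and SD. Arntl, Clock, Cry1 and Nfil3 have all KO points above all WT points, whereas Npas2, Nr1d1, Nr1d2 and Rora overlap.

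The activator arm came first. Arntl, which encodes the BMAL1 subunit, was at 13.7, 10.6 and 11.0 FPKM in the KO libraries, against 4.36, 6.17 and 5.08 FPKM in the WT libraries. The lowest KO library was thus well above the highest WT library, and the groups did not overlap. The means were 11.8 ± 1.70 FPKM in KO and 5.21 ± 0.910 FPKM in WT (SD, n = 3 each), a ratio of 2.27. On the log2(FPKM + 1) scale the difference was 1.05 ± 0.15 (SE), with a 95% interval from 0.69 to 1.40 (limma, adjusted p = 0.0188), and 0.905% of all genes had a larger one. The authors' deposited table gives it a q of 0.00119, the lowest there, which 386 genes share. The call by limma ended without KO replicate 1 (adjusted p = 0.0678), KO replicate 3 (0.0762), WT replicate 2 (0.0796) or WT replicate 3 (0.0519), while the difference stayed between 0.94 and 1.16 whichever library was left out.

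Clock encodes the partner of BMAL1 and is itself a histone acetyltransferase. It was at 13.2, 11.4 and 11.6 FPKM in the KO libraries, against 8.32, 9.005 and 7.15 FPKM in the WT libraries, without overlap. The ratio of means was 1.48 and the difference 0.51 ± 0.12 (95% interval from 0.23 to 0.79), which limma did not call (adjusted p = 0.0664) and the authors' deposited table did (q = 0.00668). Its coefficient of variation between replicates was 8.01% in KO and 11.5% in WT, and the median over all genes was 13.2% in KO and 13.9% in WT.

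Npas2, the relative that can take the place of CLOCK, was close to the limit of detection. It was at 0.121, 0.0481 and 0.0594 FPKM in the KO libraries, against 0.120, 0.0964 and 0.0785 FPKM in the WT libraries. After scaling by relative depth these values stood to each other as 2, 1 and 1 in KO and 3, 2 and 2 in WT, whole multiples of the lowest within 0.01, as would a handful of fragments per library. The groups overlapped, the authors' table made no test, and no direction can be read at this depth. Clock exceeded Npas2 by so much in every library that no ratio is given.

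The loop's repressor targets followed. Cry1 encodes a cryptochrome that closes the main feedback loop by inhibiting BMAL1 and CLOCK. It was at 8.33, 7.84 and 7.49 FPKM in the KO libraries, against 4.14, 4.30 and 6.22 FPKM in the WT libraries. The groups did not overlap, although WT replicate 3 lay nearer to the KO libraries than the other WT libraries did. The ratio of means was 1.61 and the difference 0.61 ± 0.15 (95% interval from 0.25 to 0.97), uncalled by limma (adjusted p = 0.0816) and called in the authors' deposited table (q = 0.0121). Without WT replicate 3 the difference was 0.77 and limma called it (adjusted p = 0.0464).

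Nfil3 encodes a bZIP repressor that competes with the activators DBP, TEF and HLF at D-boxes. It was at 26.1, 22.3 and 33.7 FPKM in the KO libraries, against 13.4, 16.3 and 12.9 FPKM in the WT libraries. The KO libraries were more spread than the WT libraries, but the groups did not overlap. The means were 27.4 ± 5.77 FPKM in KO and 14.2 ± 1.87 FPKM in WT (SD, n = 3 each), a ratio of 1.93, and the difference was 0.89 ± 0.17 with a 95% interval from 0.50 to 1.28 (limma, adjusted p = 0.0351). The authors' deposited table gives it a q of 0.00119. The call by limma ended whichever of the 6 libraries was left out (adjusted p between 0.0501 and 0.103), with the difference between 0.73 and 1.02.

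The receptors of the loop came next. Nr1d1, the REV-ERB alpha gene, was at 9.05, 11.7 and 10.3 FPKM in the KO libraries, against 10.9, 16.3 and 15.7 FPKM in the WT libraries. WT replicate 1 lay among the KO libraries and the other WT libraries above them. The ratio of means was 0.722 and the difference -0.42 ± 0.17 (95% interval from -0.82 to -0.02), not called by limma (adjusted p = 0.232) or in the authors' deposited table (q = 0.218). Without WT replicate 1 the difference was -0.59 (limma, adjusted p = 0.0866). In the RefSeq table (GRCm38.p6) Nr1d1 overlaps Thra, which encodes thyroid hormone receptor alpha, and since the strandedness of the libraries is not given their shared reads cannot be told apart. Thra was at 11.9, 15.7 and 14.0 FPKM in the KO libraries, against 17.0, 18.7 and 20.9 FPKM in the WT libraries, also without a call (difference -0.42 ± 0.13; limma, adjusted p = 0.141). The ratio of Nr1d1 to Thra was 0.746 ± 0.0142 in KO and 0.755 ± 0.114 in WT (SD, n = 3 each), so both genes stood lower in KO by about the same proportion. No other loop gene overlapped a protein-coding gene in that table.

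Nr1d2, the REV-ERB beta gene, was the most abundant of the 8 genes in every library. It was at 56.5, 70.7 and 66.7 FPKM in the KO libraries, against 71.2, 61.9 and 60.2 FPKM in the WT libraries. The groups overlapped throughout, with the highest and the lowest library of all each a replicate 1. The difference was 0.00 ± 0.12, and its 95% interval from -0.28 to 0.28 leaves room for a change of that size either way (limma, adjusted p = 0.997). Rora, which encodes the activator that opposes the REV-ERBs, was at 27.4, 26.1 and 22.6 FPKM in the KO libraries, against 22.8, 21.7 and 21.8 FPKM in the WT libraries. KO replicate 3 fell among the WT libraries. The difference was 0.19 ± 0.10 (95% interval from -0.06 to 0.43; limma, adjusted p = 0.374).

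**Figure D2:**
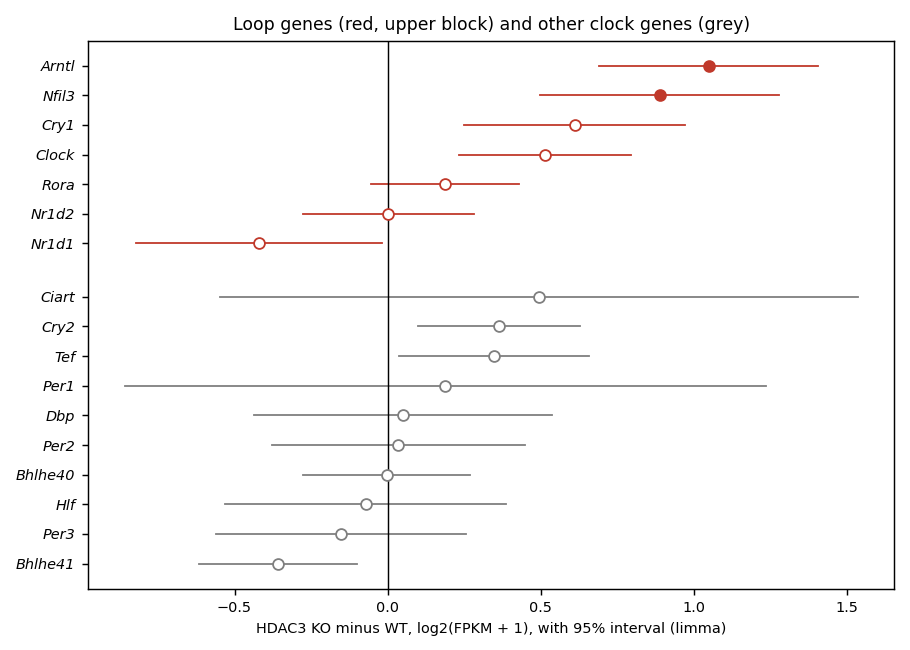
Difference between HDAC3 KO and WT on the log2(FPKM + 1) scale (horizontal axis) with its 95% interval by limma, for the 7 loop genes that passed the filter (red) and 10 other clock genes (grey); filled points were called. Arntl at 1.05 and Nfil3 at 0.89 are the filled points. Among uncalled genes, the intervals of Nr1d1 and Bhlhe41 lie wholly on the negative side. Those of Clock, Cry1, Cry2 and Tef lie wholly on the positive side.

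The order of the levels is given as a description. In KO it ran Nr1d2, Nfil3, Rora, Clock, Arntl, Nr1d1, Cry1 and Npas2. Nfil3 and Rora, Clock and Arntl, and Arntl and Nr1d1 were neighbours whose libraries overlapped. In WT it ran Nr1d2, Rora, Nr1d1, Nfil3, Clock, Arntl, Cry1 and Npas2. There Nr1d1 and Nfil3, and Arntl and Cry1, overlapped with each other. By mean, Nr1d1 thus stood behind Arntl in KO and above it in WT. In KO replicate 2, however, Nr1d1 was the higher, at 11.7 against 10.6 FPKM.

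Ratios within a library do not depend on the scaling of that library. The ratio of Arntl to Nr1d1 was 1.52, 0.9105 and 1.075 in the KO libraries and 0.400, 0.380 and 0.323 in the WT libraries. Every KO library was thus above every WT library. The ratio of Nfil3 to Nr1d1, chosen after its values were seen, was 2.69 ± 0.705 in KO and 1.02 ± 0.206 in WT (SD, n = 3 each). That of Clock to Arntl, chosen likewise, was 0.957, 1.07 and 1.05 in KO and 1.91, 1.46 and 1.41 in WT. The transcripts of the BMAL1/CLOCK pair were thus about level in KO, while Clock exceeded Arntl in each WT library. The ratio of Rora to Nr1d1 was 2.49 ± 0.465 in KO and 1.60 ± 0.423 in WT without overlap, though the lowest KO library at 2.21 and the highest WT library at 2.09 were close. The ratio of Nr1d2 to Nr1d1 overlapped, at 6.24, 6.06 and 6.50 in KO and 6.53, 3.81 and 3.83 in WT.

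**Figure D3:**
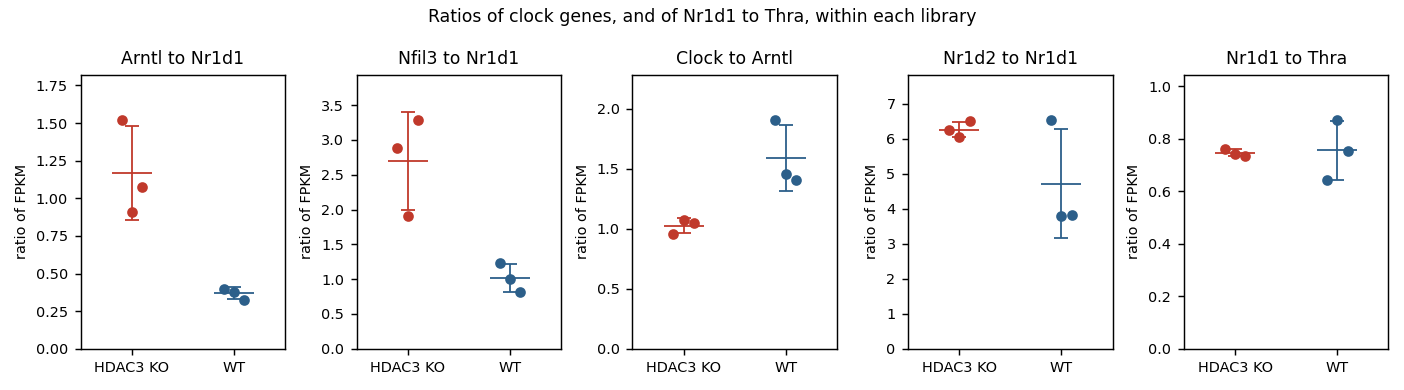
Ratio of FPKM of 2 genes within each library (vertical axes, starting at 0), for the 3 HDAC3 KO libraries (red) and the 3 WT libraries (blue), with the mean and SD. The ratios of Arntl and of Nfil3 to Nr1d1 lie higher in every KO library and that of Clock to Arntl lower, while Nr1d2 to Nr1d1 and Nr1d1 to Thra overlap.

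The further clock repressors and output factors gave no calls by limma. Of 12 further clock genes in the table, mostly repressors and output factors, 10 passed the filter. None of the 10 was called higher or lower by limma or by the q-values of the authors' deposited table. At an unadjusted p under 0.05 by limma, 2 were higher and 1 lower. These are shares of a small list, to be read against the 11.0% and 8.68% of all genes. The median difference of the 10 genes was 0.04. Cry2, the second cryptochrome, was at 6.795, 8.27 and 7.53 FPKM in KO and 5.37, 5.70 and 5.79 FPKM in WT (difference 0.36 ± 0.11; limma, adjusted p = 0.134). Ciart, a repressor of BMAL1 and CLOCK, was at 4.89, 5.17 and 7.78 FPKM in KO and 8.88, 1.62 and 3.43 FPKM in WT (difference 0.49 ± 0.44; limma, adjusted p = 0.597). Without WT replicate 1 its difference was 1.01 (limma, adjusted p = 0.130), and without WT replicate 2 it was 0.05 (adjusted p = 0.971). Bhlhe41, which encodes the repressor DEC2, was at 11.3, 9.01 and 10.1 FPKM in KO and 13.2, 12.9 and 13.6 FPKM in WT (difference -0.36 ± 0.11; limma, adjusted p = 0.132).

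Among the partners of the loop, all 6 genes of the REV-ERB corepressor complex passed the filter. By limma 2 were called higher and 1 lower, where 2.30% and 1.34% of all genes were. The lower gene was Hdac3 itself, the gene labelled as knocked out, already given above as the check of that label. Tbl1xr1 and Tbl1x, which encode the TBL1 subunits of the complex, rose. Tbl1xr1 was at 16.05, 21.0 and 17.4 FPKM in KO and 11.0, 10.4 and 10.2 FPKM in WT (difference 0.72 ± 0.12; limma, adjusted p = 0.0263). Tbl1x was at 9.45, 10.15 and 10.16 FPKM in KO and 6.09, 6.86 and 5.66 FPKM in WT (difference 0.60 ± 0.11; limma, adjusted p = 0.0327). For both the groups did not overlap, and both calls ended whichever library was left out (adjusted p between 0.0567 and 0.127). The median difference of the 6 genes was 0.17.

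Of 24 clock kinases, ubiquitin ligases and cofactors, 22 passed the filter, 1 rose, 1 fell and 20 were not called, with a median difference of 0.05. By the q-values of the authors' deposited table, 2 rose and 1 fell. Over all genes, 2.30% were called higher and 1.34% lower by limma, and 5.90% and 4.94% of tested genes by those q-values. The called genes encode acetyltransferases known as coactivators of BMAL1 and CLOCK. Kat2b (PCAF) rose to 74.1, 68.2 and 72.9 FPKM in KO, against 52.0, 43.0 and 43.0 FPKM in WT (difference 0.64 ± 0.11; limma, adjusted p = 0.0264). Ep300 (p300) fell to 4.48, 4.34 and 4.20 FPKM in KO, against 6.16, 7.05 and 7.04 FPKM in WT (difference -0.54 ± 0.11; limma, adjusted p = 0.0443). The authors' deposited table called both of these and also Csnk1e, which encodes casein kinase 1 epsilon (q = 0.0440; limma, adjusted p = 0.0526). It was at 18.4, 17.8 and 18.9 FPKM in KO and 12.4, 13.5 and 13.9 FPKM in WT, and was chosen after its values were seen. Leaving out a library ended the call of Ep300 each time (limma, adjusted p between 0.0668 and 0.191). The call of Kat2b ended for every library but WT replicate 1 (limma, adjusted p between 0.0604 and 0.120). Without WT replicate 1 it held (limma, adjusted p = 0.0338).

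Of 19 outputs controlled by the clock in mouse tissues, 1 was called by limma and 18 were not, with a median difference of 0.12. By the q-values of the authors' deposited table, 3 rose (Slc25a34, Por and Tcap) and 2 fell (Pdk4 and Ucp3). The shares over all genes were 2.30% higher and 1.34% lower by limma, and 5.90% and 4.94% of tested genes by those q-values. Por, Tcap, Pdk4 and Ucp3 were not called by limma (adjusted p = 0.112, 0.147, 0.479 and 0.351). The groups overlapped for Tcap, Pdk4 and Ucp3. The gene called by limma was Slc25a34, which encodes a mitochondrial carrier of the SLC25 family. It was at 7.70, 11.3 and 9.84 FPKM in KO and 5.66, 3.72 and 3.22 FPKM in WT (difference 1.04 ± 0.21; limma, adjusted p = 0.0415). The call ended whichever library but WT replicate 1 was left out (limma, adjusted p between 0.0746 and 0.160). Without WT replicate 1 it held (limma, adjusted p = 0.0376).

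The genes whose pattern over the 6 libraries was most like that of the called loop genes were found by Euclidean distance between centred log2(FPKM + 1) values. Nearest to Arntl were Lrp2bp (distance 0.251), Ece2 (0.255) and Arl6ip5 (0.290). Lrp2bp was at 7.65, 6.31 and 5.73 FPKM in KO and 2.03, 2.56 and 2.33 FPKM in WT. Nearest to Nfil3 were Gm5420 (0.238), Esrrg (0.250), an orphan nuclear receptor gene, and Mcm8 (0.282). Mcm8 was low, at 1.52, 1.62 and 2.10 FPKM in KO and 0.536, 0.821 and 0.392 FPKM in WT. It was not called (limma, adjusted p = 0.0515). Esrrg was at 13.95, 11.96 and 16.7 FPKM in KO and 6.70, 6.85 and 5.87 FPKM in WT. Between the loop genes themselves the distance of Arntl was 0.551 to Nfil3, 0.722 to Clock and 0.746 to Cry1, against 1.13 to Rora, 1.44 to Nr1d2 and 1.87 to Nr1d1. These distances describe 6 libraries in 2 groups and carry no test.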

How the data were processed

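Gene expression in quadriceps was given as FPKM per library, which the authors computed (TopHat2, Cuffdiff, build mm9, per the submitters' processing notes). Their versions, gene annotation, strandedness and scaling between libraries are not stated in these notes or labels. Beside FPKM, the authors deposited a Cuffdiff p-value and q-value for each gene, and a p-value of 1 was read as not tested. Depth is unknown beyond the relative estimates above, and no counting interval is given.

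Genes with a mean of at least 1 FPKM over the 6 libraries were fitted with limma 3.58.1 (R 4.3.3) on log2(FPKM + 1) with a mean-variance trend, two-sided, with Benjamini-Hochberg adjustment. Differences are KO minus WT on that scale. It shrinks the changes of low genes. Ratios are of group mean FPKM. Alternatives changed the pseudocount, filter, tested genes, scaling, trend, replicate block and libraries.

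The genes, lists and tests were chosen with earlier results of these data known. Named are the 8 loop genes, called genes of the other lists or otherwise the 3 of largest difference, and the 3 nearest in pattern to each called loop gene. The other 8 of 14 samples, among them the HDAC3 ChIP-seq libraries whose peaks are in mm9, were not analysed here, since no mm9 gene annotation was used to place peaks at genes. Of the clock lists, 2 genes are not reported here.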

Additional observations from a re-analysis of the deposited data

How the results depend on the processing

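Across 15 alternative limma fits, the differences of Arntl, Nfil3, Clock, Cry1, Nr1d1 and Rora kept their sign. Arntl was called in 10 of these fits, Nfil3 in 7, Clock in 1, Cry1 in 1, and Nr1d1, Nr1d2 and Rora in none. The difference of Nr1d2, near 0, reversed to -0.073 under quantile normalization and -0.04 under upper quartile scaling, and lay between -0.065 and 0.094 with 1 library left out, below 0 without KO replicate 2 or 3 or WT replicate 2 or 3. With no filter on low values, 152 genes were called higher and 1 loop gene, Arntl, remained. By the authors' deposited q-value 543 genes were higher, 455 lower and 4 loop genes higher. Leaving out 1 library gave 13 to 133 genes higher, 6 to 75 lower and 0 to 1 loop genes higher; the lowest counts, 13 and 6, came without WT replicate 2, the library with the neutrophil markers. A fit with fewer libraries has less precision. With a mean of at least 5 FPKM, Clock was called (adjusted p = 0.0477).

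With the replicate number as a block, 23 genes were called higher, 13 lower and 0 loop genes higher (limma, adjusted p = 0.0762 for Arntl and 0.103 for Nfil3). Deviations of same-numbered KO and WT libraries correlated at only 0.037 to 0.052, although each library correlated best with its own number. With 3 libraries per group, these values cannot decide whether the numbers pair the samples. The planned count of HDAC3 peaks near the genes was not run, for want of an mm9 annotation. Low genes such as Npas2 are limited by depth.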
